A study of Mus musculus with 3 samples.

Results

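The genes of the lysosomal proton pump, the cathepsins and the lysosome-associated membrane proteins (LAMPs) were followed in cultured mouse peritoneal macrophages given a triglyceride load. The rule used gene symbols and no measured value, though the set itself was proposed with earlier results of these data known. All genes whose symbol in the platform annotation starts with Atp6v or Atp6ap, is Cts followed by a letter (and any digits), or is Lamp followed by a digit were taken. This gave 45 genes of the 19938 with a probe set of their own: 24 of the pump, 17 cathepsins and 4 LAMPs. For the 3 genes with 2 probe sets, the brighter one on average was used. The ring subunit gene Atp6v0c and the cathepsin gene Ctsm had no such probe set and were not analysed here.

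Expression was measured on 3 Affymetrix arrays, 1 per condition, and each array carried RNA pooled from 3 samples. All cells came from male Angptl4-/- mice of strain C57Bl/6J and had been drawn into the peritoneal cavity with 4% thioglycollate, so every group, the PBS control included, carried the Angptl4 knockout. The cultures were exposed for 6 h to PBS, to intralipid (a triglyceride emulsion) at 0.5 mM triglyceride, or to the same dose of intralipid after 1.5 h with 2.5 µg/mL recombinant mouse ANGPTL4, a secreted inhibitor of lipoprotein lipase. No wild-type array was analysed, and the labels do not say whether the 3 pooled samples came from separate mice or whether cultures without ANGPTL4 were pre-incubated with anything. With 1 array per condition there is no spread between cultures and no test. Every difference below compares 2 arrays, and "higher" and "lower" describe those arrays only.

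The vacuolar proton pump has a V1 sector in the cytosol that splits ATP and a V0 sector in the membrane that carries protons into the lysosome. Cathepsins are proteases, most of which mature and work at the acid pH the pump creates, and LAMPs coat the inner face of the lysosomal membrane. Macrophages are rich in all of them, because they digest particles, lipoproteins and dead cells. MITF, TFE3, TFEB and TFEC form a family of transcription factors that bind the DNA letters CACGTG and are known to act on many lysosomal genes.

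The values are log2 expression values made with RMA. A gene was counted as expressed where it reached a floor, defined for each array as the median over its probe sets with 1 gene symbol. This was 5.00 (PBS), 4.98 (intralipid) and 4.99 (intralipid plus ANGPTL4). Of the 45 genes, 31 reached it, each on all 3 arrays, and 14 lay below it on all 3. Over all genes, 10057 of 19938 reached the floor on at least 1 array. Just inside the floor lay Ctse, with a log2 value of 5.18 on every array, and just below it Atp6v0e2, with 4.97 on every array. Array values depend on each probe set's own probes, so the level of one gene is not compared with that of another.

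Angptl4, the deleted gene, had a log2 value of 4.92 on every array, below the floor, and with no wild-type array this does not check the deletion. The cultures carried the markers of macrophages, with 8 of 8 markers past the floor on every array and a summed level, on the log2 scale, of 14.45 (PBS), 14.53 (intralipid) and 14.53 (intralipid plus ANGPTL4). That sum hides differences within the list. Cd14 had log2 values of 9.07, 11.17 and 10.34 in the same order, Fcgr1 had 9.54, 9.07 and 8.53, and Csf1r had 10.87, 10.59 and 11.38, while Lyz2 was at 12.91 on each. None of 8 T and NK cell markers and none of 3 measured B cell markers passed. Of 9 neutrophil markers, 1 did (S100a8, with a value of 5.86 on each array), and their summed level was 7.41 on every array. Dendritic cell markers had 1, 2 and 1 of 7 past the floor in the same order of arrays, with summed levels of 8.49, 8.35 and 8.48. Most of that sum was Bst2, with values of 8.03, 7.71 and 8.03. Clec9a went the other way, with 3.44, 5.00 and 3.32, and passed the floor narrowly on the intralipid array only. Fibroblast markers had 5 of 7 past the floor, with summed levels between 11.17 and 11.19. Fewer cells of a type and less RNA per cell cannot be told apart in such pooled cultures.

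**Figure D1:**
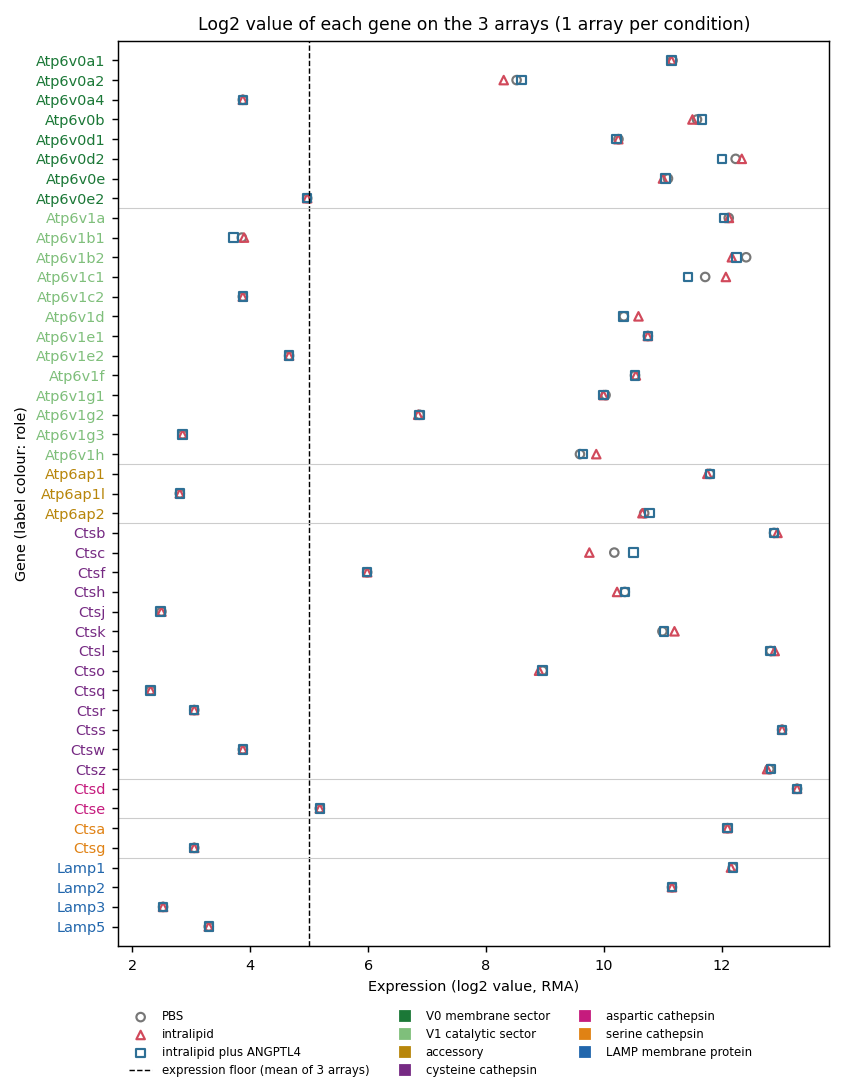
Log2 expression value (horizontal axis) of each of the 45 genes (vertical axis, grouped by role) on the PBS, intralipid and intralipid plus ANGPTL4 arrays, with the expression floor as a dashed line. The 3 symbols of most genes lie on top of each other, and Ctsc and Atp6v1c1 show the widest gaps.

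Not all isoforms of the pump subunits passed the floor. Several subunits exist as a general isoform and as one known from particular tissues, and the 7 genes below the floor were Atp6v0a4, Atp6v0e2, Atp6v1b1, Atp6v1c2, Atp6v1e2, Atp6v1g3 and the accessory relative Atp6ap1l. Atp6v0a4 and Atp6v1b1 are known from acid-secreting cells of the kidney and inner ear, and Atp6v1e2 from the testis. Their partners Atp6v0a1, Atp6v0a2, Atp6v0e, Atp6v1b2, Atp6v1c1, Atp6v1e1 and Atp6v1g1 all lay past it. So did Atp6v1g2, an isoform best known from the brain, with a log2 value of 6.87 on the PBS array, and both isoforms of subunit d, Atp6v0d1 and Atp6v0d2. Atp6v0d2 is an isoform best known from osteoclasts and macrophages.

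Among the cathepsins, 12 of 17 passed. The 5 below the floor were Ctsg (3.05 on each array), a granule protease of neutrophils, Ctsw (3.88 on each), a protease of cytotoxic lymphocytes, and Ctsj, Ctsq and Ctsr, members of a group expressed in rodent placenta, with values between 2.31 and 3.05. Probe sets of that placental group may share probes with near-identical copies, so their values are uncertain. Of the LAMPs, Lamp1 and Lamp2 passed, while Lamp3, known from mature dendritic cells, and Lamp5, known from neurons and plasmacytoid dendritic cells, had values of 2.52 and 3.30 on each array.

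Promoters of these genes were searched for the letters CACGTG, which read the same on both strands, and for the longer form TCACGTGA, which contains them. RefSeq windows of 300 bases on GRCm38.p6, from 250 bases before each transcript start to 50 after, were matched by symbol for 34 of the 45 genes, with 37 windows in all. CACGTG occurred in 9 of 24 windows of genes past the floor (37.5%) and in 0 of 13 windows of genes below it. Over all 32851 mouse windows it occurred in 7.15%, in 10.4% of the windows of genes past the floor, and in 5.73% of those of measured genes below it. At that last share, 0 of 13 is not a result about the genes below the floor. TCACGTGA occurred in 5 of the 24 windows (20.8%), against 2.05% for genes past the floor and 0.974% for all windows. These are counts of letters in windows and do not show that a factor bound there.

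The stretches that hold the motif are shown for 6 genes, chosen to cover the pump, the cathepsins and the LAMPs, with CACGTG in capitals, followed by the Ctsc stretch next to its start, which has none. Each runs 5′ to 3′ along the gene's own strand. Lamp1 lies at chr8:13159081-13159160 (plus strand), Atp6v0b at chr4:117887330-117887409 (minus), Atp6v0d1 at chr8:105566045-105566124 (minus), Atp6v1a at chr16:44139350-44139429 (minus), Ctsd at chr7:142387888-142387967 (minus), Ctsa at chr2:164833713-164833792 (plus) and Ctsc at chr7:88278005-88278084 (plus).
Lamp1: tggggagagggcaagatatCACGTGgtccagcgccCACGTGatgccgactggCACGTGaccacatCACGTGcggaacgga
Atp6v0b: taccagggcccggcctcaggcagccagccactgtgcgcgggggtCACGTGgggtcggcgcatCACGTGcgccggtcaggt
Atp6v0d1: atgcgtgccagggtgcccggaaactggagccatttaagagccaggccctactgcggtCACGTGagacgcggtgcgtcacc
Atp6v1a: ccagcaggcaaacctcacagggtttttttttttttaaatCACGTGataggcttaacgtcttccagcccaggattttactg
Ctsd: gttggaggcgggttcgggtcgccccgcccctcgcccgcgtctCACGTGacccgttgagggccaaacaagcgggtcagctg
Ctsa: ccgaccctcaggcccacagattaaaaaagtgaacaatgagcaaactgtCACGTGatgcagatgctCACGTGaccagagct
Ctsc: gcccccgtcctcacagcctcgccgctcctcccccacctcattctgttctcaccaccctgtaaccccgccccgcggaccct

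Lamp1 carried 4 copies within 80 bases of its start, and Atp6v0b and Ctsa 2 each. The Ctsd window also held 2, of which the stretch shown has the one nearer the start. The other genes with CACGTG in a window were Ctsl, Ctsf and Atp6v0e. Windows of Atp6v0a1, Atp6v1d, Atp6v1e1, Atp6v1f, Atp6v1g2, Atp6ap1, Atp6ap2, Ctsc, Ctsk, Ctso, Ctss, Ctsz and Lamp2 did not hold those letters, nor did any window of the genes below the floor. The window table held no entry for Atp6v0a2, Atp6v0d2, Atp6v1b2, Atp6v1c1, Atp6v1g1, Atp6v1h, Ctsb, Ctse and Ctsh.

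The comparison of intralipid with PBS shows how much of this gene set differed after 6 h of lipid load. None of the 31 genes past the floor was 1.5-fold higher and none 1.5-fold lower, while 10018 genes past the floor held 5.08% higher and 5.59% lower by that fold or more. The largest differences were in Ctsc, which was 1.34-fold lower with intralipid, and Atp6v1c1, which was 1.28-fold higher. The median difference was 0.00 for the set and 0.00 for all genes, and the median size of the difference, whatever its sign, was 0.0378 against 0.0950. The genes compared with the set reach down to the floor and were not matched to it in level. Smaller differences in the set, here and below, are therefore not read as a trait of its genes. A log2 difference of at least 0.1, a limit chosen after the values were seen, was found in 5 genes of the set upward (16.1%, against 16.6% of all genes) and in 4 downward (12.9%, against 32.4%).

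**Figure D2:**
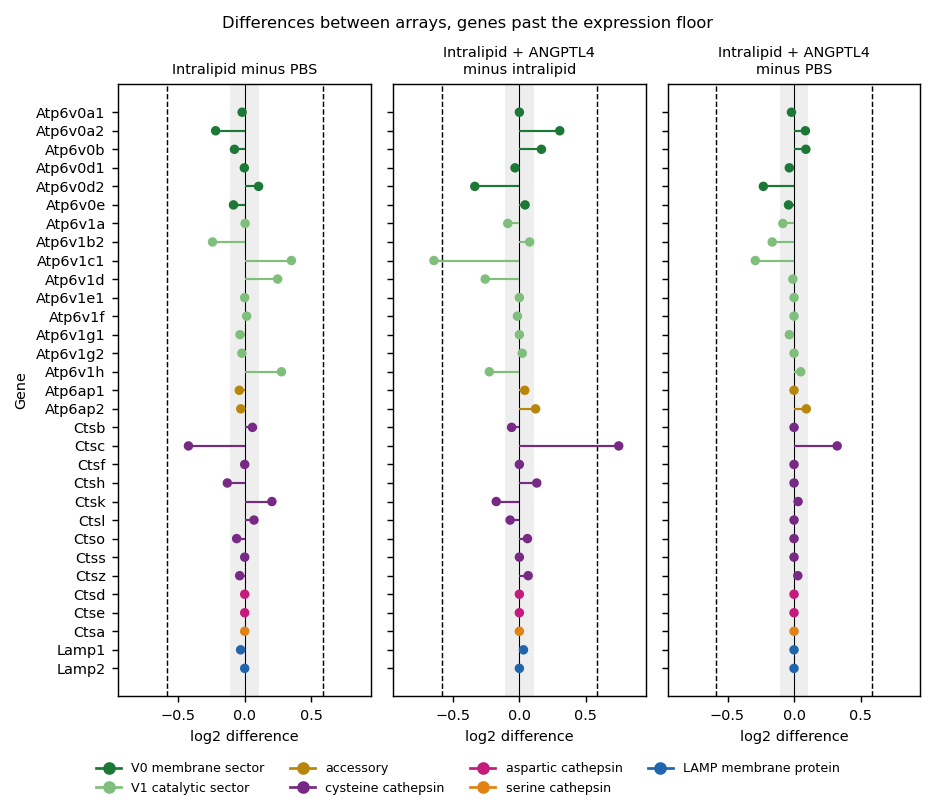
Log2 difference (horizontal axis) between arrays for the 31 genes past the floor (vertical axis, coloured by role) in each of the 3 comparisons. The grey band marks sizes under 0.1 and the dashed lines 1.5-fold. Only Ctsc and Atp6v1c1 pass a dashed line, both in the comparison of intralipid plus ANGPTL4 with intralipid.

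The set differed most between the arrays with and without ANGPTL4 under intralipid. With ANGPTL4 added, Ctsc was 1.68-fold higher and Atp6v1c1 1.56-fold lower, so 1 gene of 31 passed 1.5-fold in each direction (3.23%). Of 10025 genes past the floor, 8.28% were higher and 4.97% lower by that much. The median size of the difference was 0.06 in the set and 0.11 over all genes. At a log2 difference of 0.1, 5 genes were higher and 5 lower (16.1% each), against 35.4% and 16.1% of all genes.

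Between intralipid plus ANGPTL4 and PBS, none of the 31 genes was 1.5-fold apart. Over 9960 genes past the floor, 2.37% were higher and 0.532% lower by that much. At a log2 difference of 0.1, Ctsc was higher and Atp6v0d2, Atp6v1b2 and Atp6v1c1 were lower, or 3.23% and 9.68% of the set against 19.0% and 11.8% of all genes. The 2 values were identical for 15 of the 31 genes (48.4%) and for 40.1% of all genes. Whether the processing made such ties was not tested, and they are not read as a return to the PBS level. This comparison and the one before share the ANGPTL4 array, and each of the others also shares an array, so the 3 sets of values are not independent.

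**Figure D3:**
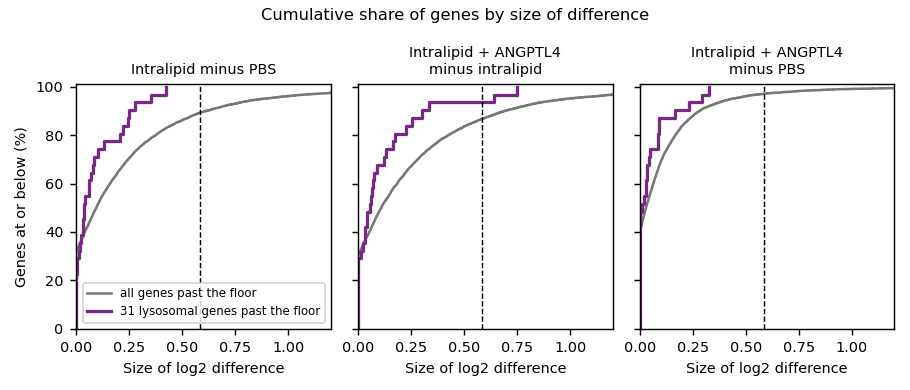
Cumulative share of genes (vertical axis, percent) whose log2 difference is no larger than the size on the horizontal axis, for the 31 lysosomal genes and for all genes past the floor. The dashed line marks 1.5-fold. Above a size of about 0.1 the line of the lysosomal genes runs above that of all genes in each of the 3 comparisons. The groups were not matched in level.

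Identical values were common on these arrays: 14722 of 35556 probe sets (41.4%) held 1 value on all 3. Whether such ties come from the processing of the deposited values was not tested, so an identical value or a median difference of 0.00 is not read as a measured lack of change. Of the 31 genes past the floor, 7 had the same value on all 3 arrays (22.6%), against 24.9% of all genes past the floor. They were Atp6v1e1 with a log2 value of 10.74, Ctsa with 12.09, Ctsd with 13.27, Ctse with 5.18, Ctsf with 5.98, Ctss with 13.02 and Lamp2 with 11.15. Atp6v1e1 is part of the stalk that holds the V1 sector in place. Ctsd encodes the main aspartic protease of lysosomes, Ctss a cysteine protease that trims the invariant chain in antigen-presenting cells, and Ctsa a serine carboxypeptidase that also protects other lysosomal enzymes from breakdown.

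In the V0 sector, which spans the membrane, the 6 genes past the floor differed little between intralipid and PBS, by -0.22 to 0.10 on the log2 scale. Atp6v0d2 had log2 values of 12.23 (PBS), 12.33 (intralipid) and 12.00 (intralipid plus ANGPTL4). Its lowest value was that with ANGPTL4, 1.26-fold below intralipid and 1.17-fold below PBS. Subunit d couples the rotating parts of both sectors. The other isoform, Atp6v0d1, had values of 10.24, 10.24 and 10.21 in the same order.

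Because Atp6v0d2 and Ctsk are also known as genes of osteoclasts, markers of these cells were read beside them. Of 7 markers, 3 passed the floor (Acp5, Nfatc1 and Mmp9), and Calcr, Oscar, Dcstamp and Ocstamp did not on any array. The summed level of the 7 markers on the log2 scale was 10.66 (PBS), 10.36 (intralipid) and 10.99 (intralipid plus ANGPTL4). Most of that sum was Acp5, with values of 10.37, 10.03 and 10.75 in the same order. Mmp9 had 6.65, 6.37 and 7.02, and Nfatc1 had 6.71, 6.67 and 6.71. The sum was highest where Atp6v0d2 was lowest and lowest where Ctsk was highest. Because it mostly followed Acp5, this order is not read as a result about osteoclasts. The part of such cells in the result was not tested.

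The a subunits anchor V0 and steer the pump to its compartment. Atp6v0a1 had log2 values of 11.16, 11.14 and 11.14 with PBS, intralipid and ANGPTL4, which differed by less than 0.05. Atp6v0a2, known from the Golgi and endosomes, had values of 8.52, 8.30 and 8.60, lowest with intralipid, and the ANGPTL4 array lay 1.23-fold above that. Its other probe set did not show this, with values of 8.08, 8.12 and 8.08. Tcirg1, which encodes the third a subunit under a symbol outside the rule, had values of 11.65, 11.74 and 11.65.

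Atp6v0b, a proton-carrying subunit of the ring, had log2 values of 11.58, 11.50 and 11.66 and the ANGPTL4 array lay 1.12-fold above the intralipid array. Atp6v0e, a small membrane subunit, had values of 11.08, 11.00 and 11.04. Neither moved by as much as 0.1 between intralipid and PBS.

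The V1 sector held the gene with the largest difference of the pump. Atp6v1c1 encodes subunit C, which joins the stalks of V1 to V0 and leaves when the pump comes apart. Its log2 values were 11.71 (PBS), 12.07 (intralipid) and 11.42 (intralipid plus ANGPTL4). The intralipid array was the highest and the ANGPTL4 array the lowest, below PBS by a log2 difference of -0.29 (1.22-fold).

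Atp6v1d and Atp6v1h were the other V1 genes that were higher with intralipid by at least 0.1. Atp6v1d encodes part of the central rotor and had log2 values of 10.34, 10.58 and 10.33 with PBS, intralipid and ANGPTL4, a difference of 0.25 (1.19-fold) between intralipid and PBS. Atp6v1h encodes a regulatory subunit that lets V1 work only when attached to V0. Its values were 9.59, 9.87 and 9.64, or 1.21-fold higher with intralipid than with PBS. In both genes the PBS and ANGPTL4 arrays lay close together and the intralipid array stood above them.

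Subunit B went the other way. Atp6v1b2, which encodes its general isoform and sits beside the catalytic subunits, had log2 values of 12.41 (PBS), 12.17 (intralipid) and 12.24 (intralipid plus ANGPTL4). Both arrays with intralipid lay below PBS, by 1.18-fold and 1.12-fold. Atp6v1a, the catalytic subunit that splits ATP, had values of 12.11, 12.12 and 12.03, all within 0.1 of each other.

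The remaining V1 genes were within 0.05 on all arrays. Besides Atp6v1e1, these were the rotor subunit Atp6v1f (10.52, 10.54 and 10.52) and the stalk subunits Atp6v1g1 (10.03, 9.99 and 9.99) and Atp6v1g2 (6.87, 6.85 and 6.87). The second probe sets of Atp6v1f and Atp6v1g1 gave the same picture, with 10.40, 10.42 and 10.40 for Atp6v1f and 9.98, 9.94 and 9.94 for Atp6v1g1. Of the accessory proteins that help the pump assemble, Atp6ap1 had values of 11.79, 11.75 and 11.79. Atp6ap2, also known as the prorenin receptor, had 10.68, 10.65 and 10.77, the ANGPTL4 array lying 1.09-fold above the intralipid array.

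Cathepsin C was the member with the largest differences. Ctsc encodes dipeptidyl peptidase I, a cysteine protease that activates the serine proteases of immune cell granules. Its log2 values were 10.17 (PBS), 9.75 (intralipid) and 10.50 (intralipid plus ANGPTL4). The intralipid array was the lowest and the ANGPTL4 array the highest, above PBS by a log2 difference of 0.32. The neutrophil markers Elane, Mpo and Prtn3, which include substrates of this enzyme, were below the floor and identical on all arrays, at 4.20, 4.12 and 4.41.

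Cathepsins K and H were the only other cathepsins with a log2 difference of at least 0.1 in any comparison. Ctsk encodes a collagen-degrading protease and had log2 values of 10.99, 11.19 and 11.02 with PBS, intralipid and ANGPTL4, 1.15-fold higher with intralipid than with PBS. Ctss, its neighbour with no protein-coding gene between them in the RefSeq order, was identical on all arrays. Ctsh, an aminopeptidase, had values of 10.35, 10.22 and 10.35 and was 1.09-fold lower with intralipid. PBS and ANGPTL4 had the same value.

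The other cysteine cathepsins past the floor were within 0.1 on all arrays. Ctsb, which acts as an endopeptidase and trims dipeptides, had 12.88, 12.94 and 12.88, and Ctsl, an endopeptidase, had 12.82, 12.89 and 12.82. Both were slightly higher with intralipid, by 0.06 and 0.07. Ctso had 8.96, 8.90 and 8.96, and the carboxypeptidase Ctsz had 12.80, 12.76 and 12.83. Lamp1, the LAMP with the 4 motif copies shown above, had 12.18, 12.15 and 12.18.

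Under the other scalings tried (arrays centred, quantile, cyclic loess), the sign of a difference turned for Atp6v0d1, Atp6v1a, Atp6v1f, Atp6v1g2, Ctsk and Ctsz in 1 or more comparisons. All those differences were under 0.05 in size, and no direction is read from them. For Ctsk this was the comparison of ANGPTL4 with PBS.

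The 9 genes with CACGTG in a promoter window differed by -0.08 to 0.07 between intralipid and PBS, by -0.09 to 0.17 between ANGPTL4 and intralipid, and by -0.08 to 0.09 between ANGPTL4 and PBS. The 13 with a window and without those letters ranged from -0.42 to 0.25, from -0.26 to 0.75 and from -0.02 to 0.32. Ctsc gave the ends at -0.42, 0.75 and 0.32. The 9 genes past the floor with no window entry are in neither group and ranged from -0.24 to 0.35, from -0.64 to 0.30 and from -0.29 to 0.09. They held 6 of the 9 genes of the set that differed by at least 0.1 between intralipid and PBS, so nothing is read from the contrast between the groups with and without the letters.

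Of the 4 factors of the MITF and TFE family, 3 differed by 1.5-fold or more between arrays. Mitf had log2 values of 8.50 (PBS), 7.75 (intralipid) and 8.90 (intralipid plus ANGPTL4), Tfe3 had 8.43, 7.75 and 8.56, and Tfec had 6.04, 5.34 and 6.25. For Mitf, which has 2 probe sets, only the brighter one on average was read. Each of the 3 lay lowest on the intralipid array, by log2 differences from PBS of -0.75, -0.68 and -0.70. Tfeb had 7.27 on every array. In the whole list of 18 TFE and nutrient-sensing genes past the floor, 3 were 1.5-fold lower and 0 higher with intralipid than with PBS. On the ANGPTL4 array, 3 were higher and 2 lower than with intralipid alone by that fold (Fnip2, -0.70, and Rragd, -0.64). Fnip2 and Rragd on that array also differed from PBS, by -0.48 and -0.58. Among all genes, 5.59% were lower and 5.08% higher with intralipid by that fold, and 8.28% were higher and 4.97% lower with ANGPTL4 added. Tfeb was named, beside its 3 relatives, after its values were seen. These are transcript levels and do not show where the proteins were in the cell, which is known to govern their activity.

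**Figure D4:**
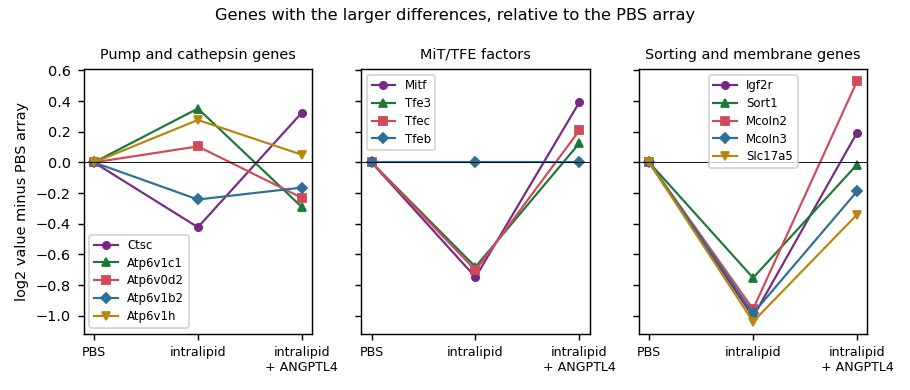
Log2 value minus that of the PBS array (vertical axis) on the 3 arrays (horizontal axis) for 5 pump and cathepsin genes, the 4 factors of the MITF and TFE family, and 5 sorting and membrane genes, chosen after their values were seen. Lines join the values of 1 gene. Ctsc, Atp6v1b2, 3 of the 4 factors and the 5 sorting and membrane genes were lowest with intralipid, while Atp6v1c1, Atp6v0d2 and Atp6v1h were highest there.

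Further genes of lysosomes, their sorting and regulation, in 8 lists (125 symbols, 113 measured and 105 past the floor), were read beside the set. The lists also hold transcription factors, sorting receptors and inhibitors, so the pooled counts are not of lysosomal proteins alone. Between intralipid and PBS, 2 of the 105 were higher and 12 lower by 1.5-fold or more, with a median of -0.03, beside 5.08% higher and 5.59% lower among all genes. Between ANGPTL4 and intralipid, 14 were higher and 5 lower, with a median of 0.00, beside 8.28% and 4.97% of all genes. The counts of 2 and 5 are no larger than those shares. Between ANGPTL4 and PBS, none reached 1.5-fold, beside 2.37% higher and 0.532% lower among all genes. The largest differences there were in Rragd (1.49-fold lower), Mcoln2 (1.44-fold higher) and Dmxl1 (1.42-fold lower). At a log2 difference of 0.1, 13 of the 105 were higher and 22 lower than with PBS, beside 19.0% and 11.8% of all genes. At 1.5-fold, the set itself held 0 and 0, 1 and 1, and 0 and 0 in the 3 comparisons. Whether these lists differ from the 31 genes was not tested.

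Sorting receptors that carry new cathepsins to the lysosome were among them. Igf2r, the large mannose 6-phosphate receptor, had log2 values of 9.50, 8.49 and 9.69 with PBS, intralipid and ANGPTL4, and Sort1, encoding sortilin, had 9.48, 8.73 and 9.47. In both, the intralipid array stood well below the other two. Of the 13 measured genes in the sorting and processing list, 2 were lower by 1.5-fold or more with intralipid than with PBS. Between ANGPTL4 and intralipid, 3 were higher by that much, the third being Sppl2a, a protease that clears the invariant chain fragment after cathepsin S. The shares of all genes were 5.59% and 8.28%.

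Among other lysosomal membrane genes, 4 of 20 were lower with intralipid than with PBS by 1.5-fold or more, beside 5.59% of all genes. Between ANGPTL4 and intralipid, 5 were higher by that much, beside 8.28% of all genes. Scarb2, 1 of these 5, is also in the lipid list described below. The sialic acid exporter gene Slc17a5 differed by -1.04 between intralipid and PBS, and the ion channel genes Mcoln3 and Mcoln2 by -0.98 and -0.96. With ANGPTL4 added, Mcoln2 was higher by 1.48. Of 19 glycosidase and sulfatase genes, 3 reached 1.5-fold on the lower side with intralipid (Galc -0.83, Gusb -0.81 and Manba -0.69) and none on the higher side, beside 5.59% and 5.08% of all genes. With ANGPTL4 against intralipid, 2 were 1.5-fold higher and 0 lower, beside 8.28% and 4.97%.

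Genes that assemble the pump or regulate it held 1 of 11 that was 1.5-fold higher with intralipid, Dmxl2 (log2 difference 0.70), and 1 that was 1.5-fold lower with ANGPTL4 than with intralipid, its relative Dmxl1 (-0.82). Both encode proteins of the complex that puts V1 and V0 together. For Dmxl2, which has 2 probe sets, only the brighter one on average was read. With 5.08% of all genes higher and 4.97% lower in these comparisons, 1 of 11 is near the share of all genes, as are the counts of 0 among the proteases and lipid genes that follow. Of 5 cathepsin inhibitor genes past the floor, Cst3, encoding cystatin C, had log2 values of 12.66, 12.59 and 12.66, and Ctla2b, related to cathepsin propeptides, had 4.94, 6.10 and 5.04, below the floor with PBS. Of 8 genes listed as other lysosomal proteases, none was 1.5-fold apart between intralipid and PBS. Dpp7 was higher by 0.64 with ANGPTL4 than with intralipid. That list includes Pgpep1 (-0.35 for intralipid against PBS), whose product is known from the cytosol. Of 12 genes of lysosomal lipid handling, none was 1.5-fold apart between intralipid and PBS, and Lipa, the acid lipase, named after its values were seen, had 12.51, 12.38 and 12.51. With ANGPTL4 against intralipid, Scarb2 was higher by 0.64 and Pla2g15 differed by -0.62.

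**Figure D5:**
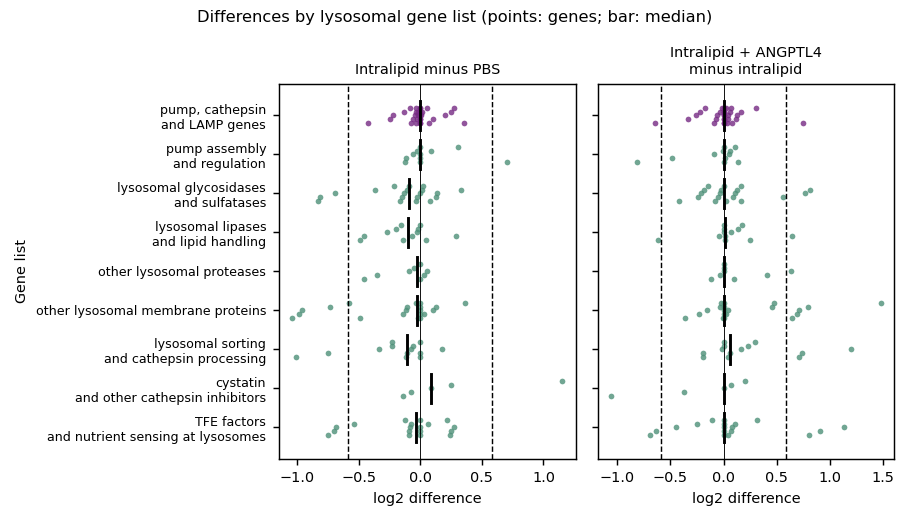
Log2 difference (horizontal axis) of the genes past the floor, by gene list (vertical axis). Shown are the pump, cathepsin and LAMP set and 8 further lists of lysosomal and related genes. The panels give intralipid minus PBS and intralipid plus ANGPTL4 minus intralipid. Points are genes, black bars medians and dashed lines 1.5-fold. The top row lies closer around 0 than the lists of membrane, glycosidase and TFE genes, but other lists lie about as close. For intralipid minus PBS, 22 of its 31 genes were within 0.1, beside 6 of 8 other proteases and 7 of 11 pump assembly genes.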

How the data were processed

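The authors deposited log2 expression values per probe set, made with RMA per the submitters' processing notes. For the RMA version, chip definition and filters: not given in the sources used here. Per the labels, RNA had an integrity number above 8 and was pooled from 3 samples per array. The table held 35556 probe sets, of which 21789 had 1 gene symbol in the platform annotation, 1621 several and 12146 none. All 45 members had their gene identifier in the RefSeq table, and 0 had another symbol there.

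Values were used as deposited, and differences between log2 values were counted at 1.5-fold where the higher array reached the floor. With 1 array per group differences are described without tests or p-values; precision is limited by how few arrays there are. Members, lists, thresholds and the naming rule were chosen with earlier results of these data known. Named are members past 1.5-fold, isoform pairs and members with several probe sets. The rule for each list was up to 4 genes with the largest difference in each comparison, but only some of these are printed. That choice was made after the values were seen, and Idua, Npc1, Lamtor4 and Serpinb6a are among those left out. Remaining members were given by role, with values added after they were seen, as were Lipa, Tfeb, Tcirg1 and markers named singly. The counting was tested on simulated data. Alternatives were other folds and floors, arrays centred on their medians, quantile and cyclic loess normalization (limma 3.58.1 in R 4.3.3), the mean over probe sets, and leaving out identical members. Python 3.11.15 with pandas 2.3.3 was used.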

Additional observations from a re-analysis of the deposited data

How the results depend on the processing

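The counts of members at 1.5-fold were the same with no floor, with the floor at the 60th percentile, with arrays centred, with quantile or cyclic loess normalization and with the mean over probe sets. Ctsc and Atp6v1c1 have 1 probe set each and lie far above the floor. The runs with another floor or the mean over probe sets therefore could not remove these genes from the counts. The counts moved with the fold itself. At a log2 difference of 0.32, the lower fold tried, 1 member was higher and 1 lower with intralipid than with PBS, 2 were lower with ANGPTL4 than with intralipid, and 1 was higher with ANGPTL4 than with PBS. At 2-fold, 0 were higher and 0 lower with ANGPTL4 than with intralipid. The share of all genes was not counted at these folds, so such counts are not read as results about the members. At a log2 difference of 0.1, added after seeing the data, 5 were higher and 4 lower for intralipid against PBS, 5 and 5 for ANGPTL4 against intralipid, and 1 and 3 for ANGPTL4 against PBS. Median differences of the members stayed between -0.04 and 0.01 under every alternative run, and shifts under 0.05 were counted as no change. That limit is loose beside the members' median size of difference. This size was 0.04 for intralipid against PBS, 0.06 for ANGPTL4 against intralipid and 0.01 for ANGPTL4 against PBS. The log2 difference between ANGPTL4 and intralipid ranged from 0.72 to 0.75 for Ctsc and from -0.65 to -0.64 for Atp6v1c1. No paired analysis was possible because each group has 1 array, and no array could be left out. A difference between cultures cannot be told apart from one between conditions.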

Other observations

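Of the probe sets with several symbols, 4 carried Cts3 together with Ctsm, both of the placental cathepsin group. They had log2 values of 3.20 or 2.90, each identical on all 3 arrays, and were used in no comparison. Some members below the floor shared 1 value with each other: Atp6v0a4, Atp6v1c2 and Ctsw had a log2 value of 3.88 on each array, and Ctsg and Ctsr had 3.05.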
